A study of Mus musculus with 5 samples.

Results

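The small subunit of the cytosolic ribosome binds messenger RNA and reads its codons, and its proteins are encoded in the mouse by the Rps genes. Members were taken by name from the gene table of the series: Rps2 to Rps29, with or without a trailing letter, and Rpsa, leaving out the Rps6k kinases and pseudogenes. This gave 32 of the 11608 genes listed. The name of each of the 32 matched its transcript in the reference annotation, or its coordinates where no transcript was found there.

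The study asked how PARP-14, an enzyme that attaches ADP-ribose to proteins, and ADP-ribosyltransferase activity bear on transcription in T helper 2 (Th2) cells. RNA polymerase II phosphorylated on serine 2 was mapped by chromatin immunoprecipitation and sequencing. Naive CD4+ CD62L+ T cells came from spleens of young adult mice of a few weeks of age. They were activated through CD3 and CD28 for 3 days with IL-4 at 10 ng/ml and an antibody to interferon gamma, then expanded for 4 days in IL-2 at 50 U/ml and IL-4.

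The 4 conditions were PARP-14 +/+ C57BL6 cells without treatment (wild type), the same cells with PJ34, an inhibitor of ADP-ribosyltransferases (PJ34-treated wild type), PARP-14 −/− cells on the C57BL6 background without treatment (Parp14-deficient), and those cells with PJ34 (PJ34-treated Parp14-deficient). The labels give PJ34 at 10 µM on differentiated cells, while the methods of the study give another dose and describe culture in its presence. Each condition was 1 library, so no difference below has a replicate check. An input library mixed from both genotypes served the authors for calling intervals. Peak heights had been formed after the authors reduced every library to an equal number of unique alignments.

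Ribosomal protein genes are short and among the most heavily transcribed genes of growing cells, and T cells build many ribosomes once activated. Their messenger RNAs start with a run of C and T, the terminal oligopyrimidine tract, through which growth signals set how much protein is made from them. RNA polymerase II gains serine 2 phosphorylation as it elongates, and this form accumulates towards and past the polyadenylation site, where the transcript is cleaved.

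The labelled cell type was checked against marker genes. All 6 Th2 markers were listed, with summed peak heights of 329, 278, 272 and 220 in wild type, PJ34-treated wild type, Parp14-deficient and PJ34-treated Parp14-deficient cells, the order kept for every set of 4 values below. Il4ra, the IL-4 receptor chain, was the tallest with heights of 132, 110, 160 and 130. Gata3, the master regulator of Th2 cells, had 60, 58, 45 and 43, and the cytokine gene Il4 had 61, 39, 29 and 18. The other cytokine genes, Il5 and Il13, had 21, 21, 4 and 6 and 38, 33, 17 and 10, and Ccr4 had 17, 17, 17 and 13. Of 8 T cell markers 6 were listed, summing to 67.5, 84.5, 67.5 and 55.5, with Cd28 the tallest in wild type at 21. Of 4 Th1 markers 3 were listed, summing to 55.9, 49.6, 50.9 and 41.9, and the tallest was Tbx21 at 28, 22, 26 and 19. Ifng had 22, 20, 16 and 14, while Stat4 had 5.89, 7.56, 8.89 and 8.89, lowest in wild type and without an interval there. So Tbx21 and Ifng, genes of the Th1 type, carried polymerase in these cultures too, in all 4 libraries. For CD8 T cells and erythroid cells no marker had a line matched by name, and of 6 myeloid markers 2 were listed: Csf1r had 8, 8.5, 6 and 5.5 and Itgam 1, 4, 0 and 2. Of 5 B cell markers 1 was matched, Cd79a, at 38, 36, 34 and 28, but it lies in the same active region as Rps19 and carries that gene's values, with no interval over Cd79a itself in wild type. The Th2 markers were lower in sum in both Parp14-deficient libraries than in wild type, and their part in the values of the ribosomal protein genes was not tested. In such bulk samples fewer cells of a type and less polymerase per cell cannot be told apart. Parp14 itself (chr16:35832964-35871586, mm9) had heights of 8, 11, 6.67 and 6.67, and intervals covered 22873, 20836, 2686 and 3286 bp of it.

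The value for a gene is its average peak height: the largest number of overlapping sequenced fragments in an active region, averaged over the gene's active regions. Active regions are stretches in which any library of the table had an interval of enriched signal. For 31 of the 32 genes there was 1 active region, and Rps27l had 2. The height is read at the highest point and is not a sum over length. Across the 32 genes, which are not independent replicates, Spearman's rho of mean height with gene length was 0.0948, with lengths from 979 bp (Rps27) to 11774 bp (Rps15a).

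The small subunit genes were tall in every library. Their median height was 29.5 in wild type, 23 in PJ34-treated wild type, 25.5 in Parp14-deficient and 27 in PJ34-treated Parp14-deficient cells, beside medians over all listed genes of 8, 8.33, 8 and 7.4. The 95% order-statistic intervals of the 4 member medians were 25 to 33, 22 to 27, 19 to 32 and 20 to 30. The member medians stood above 94.9%, 91.7%, 93.0% and 94.3% of all listed genes. All 32 had an interval of enriched signal in each of the 4 libraries, against 33.0% of all listed genes. With intervals required to reach a height of 20, 19 of the 32 had one in every library, against 6.50% of all listed genes. Wild type was the highest of the 4 libraries for 15 genes, PJ34-treated Parp14-deficient for 7, Parp14-deficient for 6 and PJ34-treated wild type for 4. These counts are unscaled and have no share over all listed genes to set beside them.

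**Figure D1:**
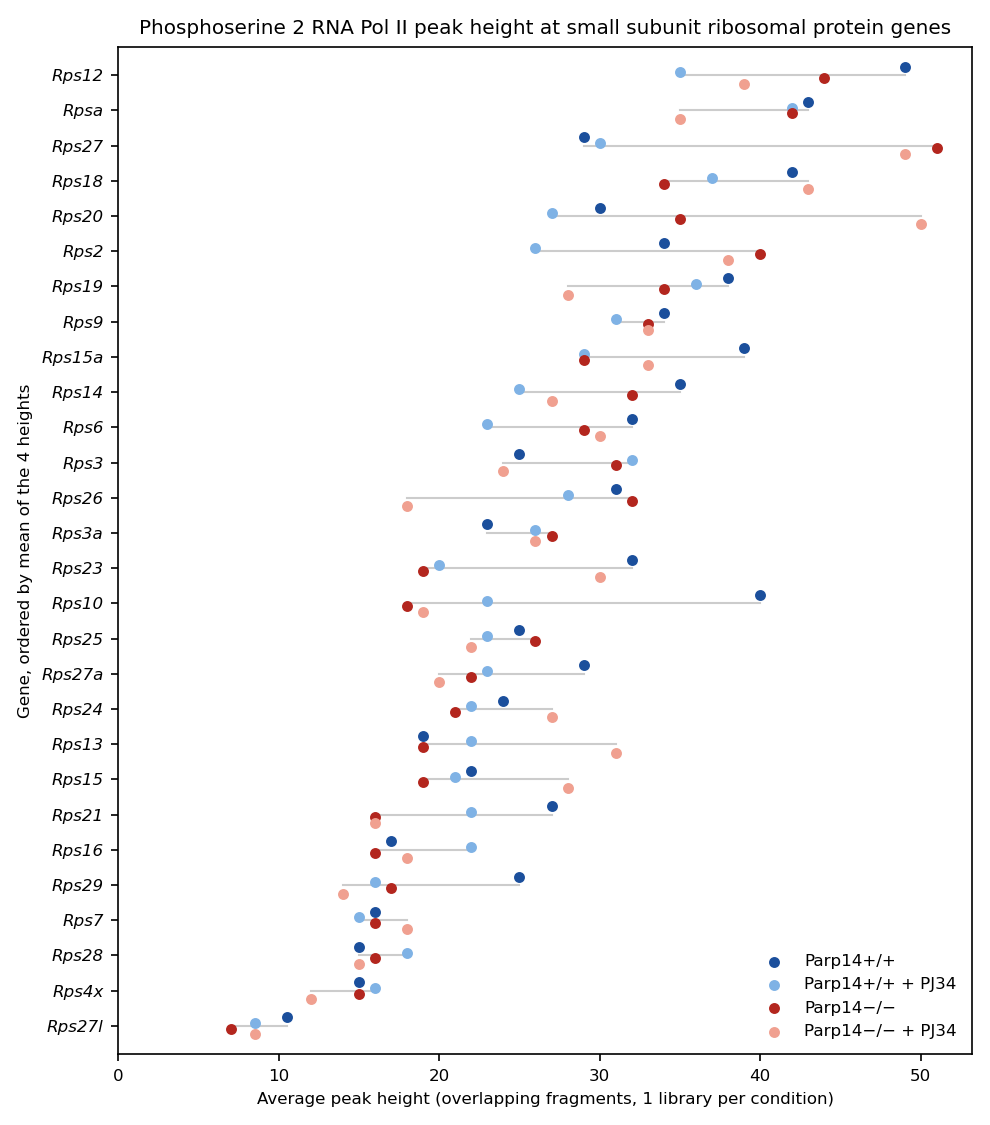
Average peak height (overlapping fragments, horizontal axis) of 28 of the 32 genes in the 4 libraries, 1 point per library, ordered by the mean of the 4 heights. Rps12, Rpsa and Rps27 have the tallest means, Rps27l has the lowest, and the points of Rps10, Rps27 and Rps20 span wide ranges.

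In the head of the subunit, which swivels as messenger RNA and transfer RNA move through, the 14 genes had median heights of 29.5, 23, 24 and 23. Rps12, a protein of the beak of the head, had the tallest mean of all 32 genes, with 49, 35, 44 and 39. Rps18, which contacts the large subunit, had 42, 37, 34 and 43. Rps19, the gene most often mutated in Diamond-Blackfan anaemia, had 38, 36, 34 and 28. Wild type was the highest library for Rps12 and Rps19, and PJ34-treated Parp14-deficient was the highest for Rps18. Rps10 and Rps20 encode head proteins that are ubiquitinated when ribosomes stall. Rps10 had 40, 23, 18 and 19, so wild type was the highest library. Rps20 had 30, 27, 35 and 50, so PJ34-treated Parp14-deficient was the highest. Rps3, whose protein lines the channel where messenger RNA enters, had 25, 32, 31 and 24. Rps15 and Rps16 encode proteins whose tails reach towards the transfer RNAs. Rps15 had 22, 21, 19 and 28, and Rps16 had 17, 22, 16 and 18. Rps29, a zinc-binding protein mutated in Diamond-Blackfan anaemia, was highest in wild type, with 25, 16, 17 and 14. Rps25, needed for initiation on several viral RNAs, had 25, 23, 26 and 22, a narrow range. Rps27a, made as a fusion of ubiquitin to the ribosomal protein, had 29, 23, 22 and 20. Rps28, at the messenger RNA exit, was low for a head gene, with 15, 18, 16 and 15.

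In the body and platform, which hold the decoding centre and the exit of the messenger RNA, the 18 genes had median heights of 30, 23.5, 26 and 27.5. Rpsa, also known as the laminin receptor precursor, had 43, 42, 42 and 35, and Rps21, its neighbour on the back of the subunit, had 27, 22, 16 and 16. Rps27, a zinc-binding platform protein, had 29, 30, 51 and 49, with both Parp14-deficient libraries above both wild-type libraries. Its paralogue Rps27l, a target of p53, was the lowest of the 32 genes in every library, with 10.5, 8.5, 7 and 8.5. Rps2, at the messenger RNA entry, had 34, 26, 40 and 38. Rps9 and Rps23 encode proteins that set the accuracy of decoding. Rps9 was nearly level over the libraries at 34, 31, 33 and 33, while Rps23 had 32, 20, 19 and 30. Rps14, a platform protein whose loss of a copy in people gives anaemia, had 35, 25, 32 and 27. Rps26, at the messenger RNA exit, had 31, 28, 32 and 18, so PJ34-treated Parp14-deficient was its lowest library. Rps3a, also near the exit, had 23, 26, 27 and 26. Rps6, the substrate of the S6 kinases, had 32, 23, 29 and 30. Rps4x, on the X chromosome, had 15, 16, 15 and 12. Rps7, a platform protein, had 16, 15, 16 and 18. Both were among the lowest in wild type. Rps15a, at the centre of the body, had 39, 29, 29 and 33. Rps13, at a bridge to the large subunit, had 19, 22, 19 and 31, with intervals that included 1 for all 4 ratios. Rps24, in the foot of the body, had 24, 22, 21 and 27.

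Comparing untreated wild type with untreated Parp14-deficient cells asks what goes with loss of the protein. The median ratio over the 32 genes was 1.10 (95% order-statistic interval 1 to 1.24), beside a median of 1 over 11535 genes with a height above 0 in both libraries. The ratio was above 1 for 20 genes, beside 46.4% of all genes, below 1 for 9, beside 42.8%, and equal to 1 for 3. Past the limits that the study used for genes of high signal, 11 genes were above 1.2, beside 27.8% of all genes, and 2 were below 0.83, beside 26.6%. Among those above 1.2 were Rps10, Rps21, Rps23, Rps27l, Rps29 and Rps15a, and below 0.83 were Rps3 and Rps27. Low heights scatter more, so the counts were also made among genes reaching a height of 15 in the taller library, which held all members but Rps27l. There 10 of 31 members were above 1.2, beside 28.9% of such genes, and 2 were below 0.83, beside 32.8%. The median height of the members was above the limit of 15, so these genes are not matched to them in height, and the shares were not tested against each other.

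Rps10 (gene ID 67097, chr17:27767374-27772187, minus strand) had the highest wild type over Parp14-deficient ratio, 2.22, with a 95% Clopper-Pearson interval of 1.24 to 4.12. Rps27 (gene ID 57294, chr3:90016591-90017569, minus strand) had the lowest, 0.569 (0.348 to 0.914). These were the 2 members whose interval excluded 1, beside 2.37% of all genes. Taller heights give narrower intervals, and the members are taller than most genes. This share, and the like shares for the other comparisons, are therefore not matched to the members in height. The intervals treat heights as counts at a fixed place and cover the error of such counting only. A height is a maximum whose place can differ between libraries, and the intervals do not cover that. For the next highest ratios, Rps21 had 1.69 (0.877 to 3.35) and Rps23 1.68 (0.926 to 3.14). For the next lowest, Rps3 had 0.806 (0.457 to 1.41) and Rps2 0.850 (0.522 to 1.38). None of these 4 differences was detectable at this depth.

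Other genes singled out for their roles or heights had intervals that included 1 in the same comparison. Rps27l, the p53 target, had a ratio of 1.5 (0.727 to 3.19), and Rps27a, the ubiquitin fusion, 1.32 (0.731 to 2.41). Rps19, the Diamond-Blackfan gene, had 1.12 (0.685 to 1.83) and Rps12 had 1.11 (0.726 to 1.71). The S6 kinase substrate Rps6 had 1.10 (0.647 to 1.89). Rps14 had 1.09 (0.658 to 1.82), Rpsa 1.02 (0.653 to 1.61) and Rps4x 1 (0.456 to 2.20).

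The same genotypes compared under PJ34 use the other 2 libraries and ask what goes with loss of the protein once the enzymes are inhibited. The median ratio of PJ34-treated wild type over PJ34-treated Parp14-deficient was 0.912 (0.828 to 1.15) over the 32 genes, beside 1.13 over 11540 genes. All genes together were therefore shifted, and relative to that shift the member median was 0.806. The ratio was above 1 for 12 members, beside 60.3% of all genes, and below 1 for 18, beside 29.9%. With libraries scaled to a common median 11 were above 1, beside 51.4%, and 21 below, beside 48.6%. Scaled, 2 members were above 1.2, beside 27.6%, and 17 below 0.83, beside 26.2%. The counts that follow are unscaled. Above 1.2 were 7 members, beside 41.0% of all genes: Rps26, Rps21, Rps3, Rps4x, Rps19, Rps16 and Rps10. Below 0.83 were 10, beside 16.6%, among them Rps6, Rps13, Rps2, Rps23, Rps27 and Rps20. Among genes reaching a height of 15, 7 of 31 members were above 1.2, beside 36.9%, and 10 were below 0.83, beside 20.9%, with a median of 1.09 over all such genes.

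Under PJ34 the intervals of 2 members excluded 1, beside 2.73% of all genes, and both lay below 1. Rps20 (gene ID 67427, chr4:3761620-3762747, minus strand) had 0.540 (0.325 to 0.879), the lowest ratio. Rps27 had 0.612 (0.375 to 0.984), so it was lower in wild type in both genotype comparisons, which share no library. The highest ratio was that of Rps26, at 1.56 (0.831 to 2.99), from heights it has in common with its neighbour Ikzf4. Rps10, the most extreme gene without treatment, had 1.21 (0.631 to 2.35). Rps23 had 0.667 (0.359 to 1.21), on the other side of 1 from its untreated ratio. Among the genes singled out for their roles, Rps6 had 0.767 (0.425 to 1.37), Rps14 0.926 (0.515 to 1.66) and Rps19 1.29 (0.763 to 2.19). Rpsa had 1.2 (0.748 to 1.94), Rps27a 1.15 (0.604 to 2.21) and Rps4x 1.33 (0.592 to 3.09).

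**Figure D2:**
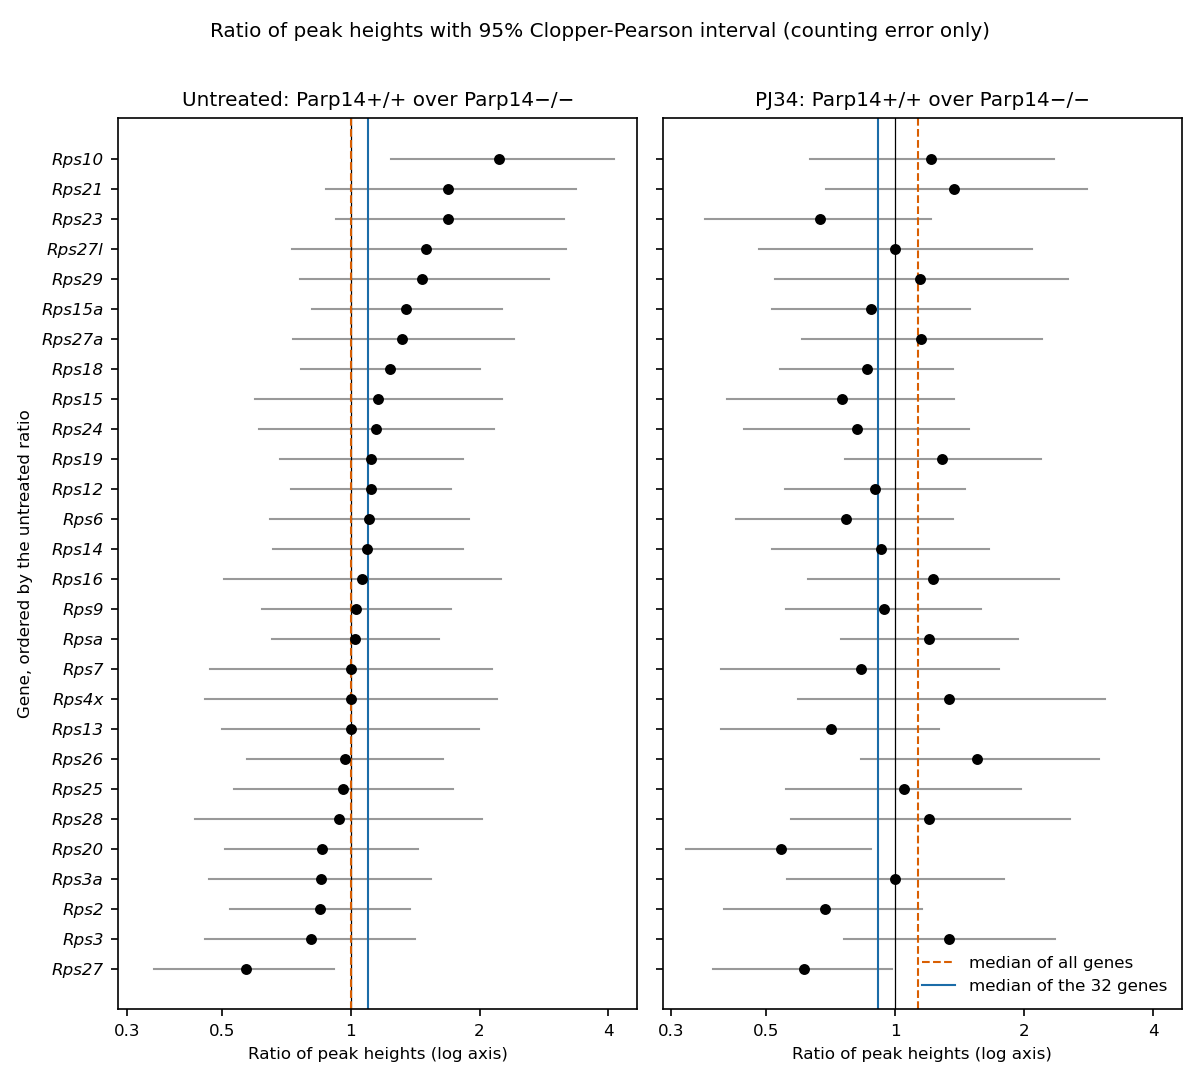
Ratio of peak heights, wild type over Parp14-deficient (horizontal log axis), without treatment and with PJ34, for 28 of the 32 genes ordered by the untreated ratio; bars are 95% Clopper-Pearson intervals for counting error. The median over all 32 lies at 1.10 without treatment and at 0.912 with PJ34, while that of all genes lies at 1 and 1.13.

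Set side by side, 12 members had a ratio above 1 without treatment and below 1 with PJ34, beside 11.3% of all genes, among them Rps12, Rps14, Rps15a, Rps18, Rps23 and Rps6. The reverse held for 4, beside 23.4% of all genes: Rps25, Rps26, Rps28 and Rps3. With libraries scaled to a common median the counts were 13 and 3, beside 19.7% and 19.2% of all genes. Both ratios were above 1 for 7 members (Rps10, Rps16, Rps19, Rps21, Rps27a, Rps29 and Rpsa), beside 30.9% of all genes, and below 1 for 4, beside 15.3%, among them Rps2, Rps20 and Rps27. By place in the subunit, the head genes had median ratios of 1.12 without treatment and 1.09 with PJ34, and the body and platform genes 1.06 and 0.879, beside 1 and 1.13 over all genes. Under PJ34, 4 of the 18 body and platform genes and 8 of the 14 head genes were above 1, beside 60.3% of all genes, and 12 and 6 were below 1, beside 29.9%. With libraries scaled to a common median 4 and 7 were above 1, beside 51.4%, and 14 and 7 below, beside 48.6%. Scaled, the PJ34 median ratio was 0.979 for the head genes and 0.787 for the body and platform genes. The difference between head and body was not tested.

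PJ34 in wild-type cells was compared through untreated over treated wild type, which shares the wild-type library with the untreated genotype comparison. The median ratio was 1.12 (1.06 to 1.31), beside 0.960 over 11540 genes, and with libraries scaled to a common median it stayed above 1, with 26 members above 1, beside 49.8% of all genes, and 6 below. Unscaled, the ratio was above 1 for 25 members, beside 37.4%, and below 1 for 7, beside 52.0%. Above 1.2 were 14, beside 19.5% of all genes, and below 0.83 were 2, Rps3 and Rps16, beside 30.0%. Rps10, Rps23, Rps29, Rps12, Rps14 and Rps6 were among the 14. Among genes reaching a height of 15 the counts were 13 of 31, beside 25.4%, and 2, beside 25.2%. Intervals excluded 1 for 2 members, beside 1.32% of all genes. Both lay above 1, and Rps10 was 1 of them, with 1.74 (1.02 to 3.04). Rps16 was lowest, at 0.773 (0.385 to 1.52).

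PJ34 in Parp14-deficient cells was compared in the same way, sharing a library with each genotype comparison. The median ratio of untreated over treated was 1 (0.889 to 1.10), beside 1.07 over 11535 genes. Of the members 15 were above 1, beside 53.8%, 14 below, beside 34.4%, and 3 equal. With libraries scaled to a common median 11 were above 1, beside 49.3%, 21 below, beside 50.7%, and 2 above 1.2, beside 24.7%. Above 1.2 were 5 members (Rps26, Rps3, Rps4x, Rps19 and Rps29), beside 32.9% of all genes. Below 0.83 were 8, beside 18.8%, among them Rps18, Rps20, Rps23 and Rps13. Among genes reaching a height of 15, 5 of 31 were above 1.2, beside 37.5%, and 7 were below 0.83, beside 16.0%. No member's interval excluded 1, beside 1.28% of all genes. The range ran from 0.613 (0.327 to 1.12) at Rps13 to 1.78 (0.968 to 3.36) at Rps26.

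The position of the highest point within each interval varied between libraries. It was called at the start when within 500 bp of the annotated start, and beyond the gene when past its annotated 3′ end. In wild type the highest point was beyond the gene for 23 of the 32 members, beside 41.1% of 1388 listed genes no longer than the longest member and with an interval in all 4 libraries, and at the start for 6, beside 26.2%. In PJ34-treated wild type it was beyond for 18 members, beside 37.7%, and at the start for 13, beside 28.0%. In Parp14-deficient cells it was beyond for 13, beside 34.4%, and at the start for 17, beside 30.5%. In PJ34-treated Parp14-deficient cells it was beyond for 12, beside 35.4%, and at the start for 19, beside 33.0%. Wild type thus had the most members with the highest point past the gene, and PJ34-treated Parp14-deficient cells the fewest. Only the highest point of each interval was used, so the height at the other end of a gene was not analysed here.

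From wild type to Parp14-deficient cells the highest point went from beyond the gene to its start at 12 members, among them Rps10, Rps12, Rps27, Rps29, Rps3 and Rps6, beside 7.56% of the 1388 genes, and the reverse occurred at 0, beside 2.23%. From wild type to PJ34-treated wild type the counts were 7, beside 5.55%, and 0, beside 3.17%. From PJ34-treated wild type to PJ34-treated Parp14-deficient cells they were 8, beside 6.20%, and 2, beside 3.31%. From Parp14-deficient to PJ34-treated Parp14-deficient cells they were 7, beside 4.83%, and 5, beside 4.18%. In each of these comparisons the 1388 genes also had more moves to the start than away from it, and the difference between members and these genes was not tested. At Rps10 it lay 1005, 941 and 525 bp past the 3′ end in wild type, PJ34-treated wild type and PJ34-treated Parp14-deficient cells, and 58 bp after the start in untreated Parp14-deficient cells only. At Rps27 it lay 942 bp past the 3′ end in wild type, where the neighbour Nup210l has an intron, and 80, 96 and 64 bp after the start in the other 3 libraries. So without treatment the taller Rps27 value of Parp14-deficient cells was read near the start, and the wild-type value downstream of the gene. With PJ34 both values were read near the start, 30 in wild type and 49 in Parp14-deficient cells. At Rps20, by contrast, all 4 were at the start, 26, 58, 26 and 58 bp after it. At the members with the highest point at the start in both untreated libraries, 5 genes, the median wild type over Parp14-deficient ratio was 0.969. It was 1.09 at the 11 with the point beyond the gene in both, and 1.11 at the 15 where its place differed.

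Some members kept the same place in every library. The highest point was beyond the gene in all 4 for members such as Rps16, Rps18, Rps19, Rps25 and Rpsa, and at the start in all 4 for Rps2, Rps20, Rps21, Rps26 and Rps4x. It was at the start in PJ34-treated Parp14-deficient cells alone for Rps13, Rps14, Rps23, Rps27a and Rps3a, and also for Rps15a and Rps24, where in wild type it lay within the gene. Rps27l had it at the start, at the start, within the gene and beyond it. Start positions had medians of 30.5, 38, 58 and 66 bp after the annotated start in the 4 libraries, and positions beyond the gene medians of 1131, 1282, 940 and 972 bp past the 3′ end. The intervals ran far past the genes, with median overhangs beyond the 3′ end of 5665, 5516, 4680 and 4648 bp, beside 4196, 3482, 3079 and 3165 bp for the 1388 genes. Among the 11 members with no other listed gene in their active region, the highest point was beyond the gene for 7, 6, 4 and 3 and at the start for 3, 5, 6 and 8. Of these 11, Rps13, Rps23 and Rps7 carry the same 4 heights as a listed gene close by. Without them the counts over 8 members were 4, 4, 2 and 3 beyond the gene and 3, 4, 5 and 5 at the start.

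**Figure D3:**
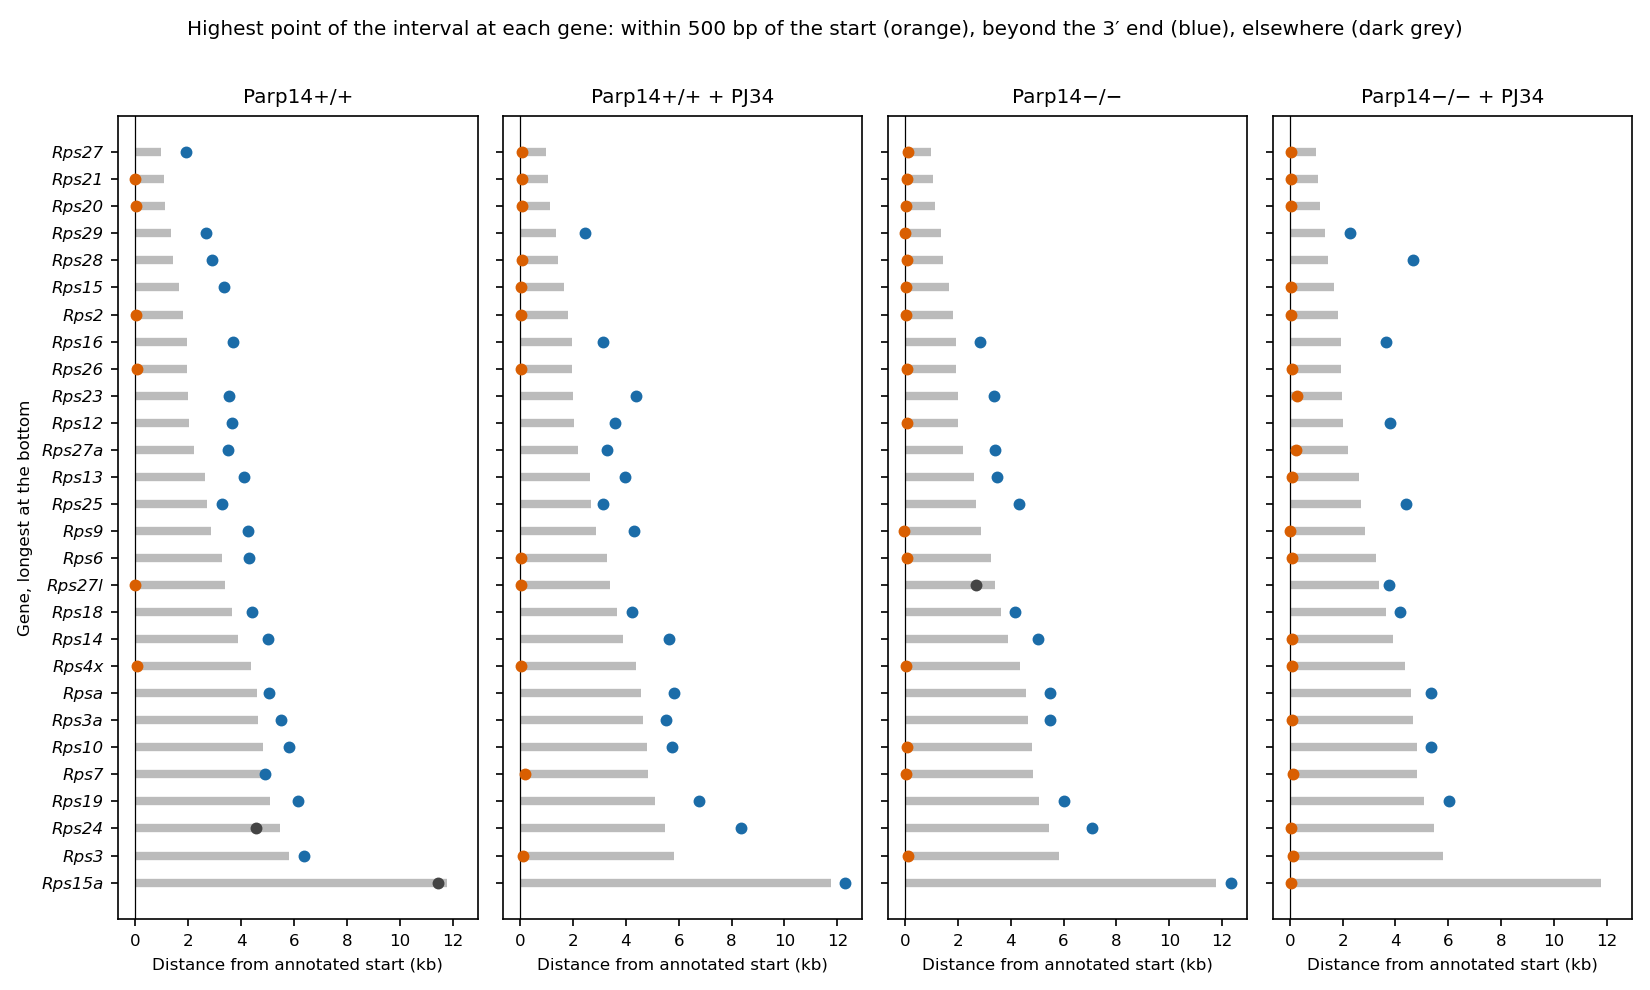
Position of the highest point of the interval (points) along each of 28 of the 32 genes (grey bars, from annotated start at 0 to 3′ end, kb) in the 4 libraries, longest gene at the bottom. Points past the 3′ end (blue) number 20, 16, 12 and 10 of the 28 drawn, and points within 500 bp of the start (orange) number 6, 12, 15 and 18.

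Since so many highest points lay past the 3′ end, the annotated ends were searched for the polyadenylation hexamers AATAAA and ATTAAA, on the gene's strand in the last 50 bases of the mm9 sequence. Of the 32 members 30 held one, all but Rps24 and Rps6, and 28 held AATAAA; of all 11608 listed genes 68.2% held either. The last 29 bases are shown for 3 of the genes whose highest point was beyond the 3′ end in every library, each 5′ to 3′ on the gene's strand with the hexamer in capitals. They mark where the annotated transcript ends, upstream of those points. Rps16 is chr7:29137687-29137715 on the plus strand, Rps18 chr17:34088944-34088972 on the minus strand and Rps19 chr7:25674793-25674821 on the plus strand. A match is a description of the letters only.
Rps16: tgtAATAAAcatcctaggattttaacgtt
Rps18: ctgttAATAAAtagtttatatacctatga
Rps19: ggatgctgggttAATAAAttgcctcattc

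Many members lie close to other genes. In wild type 15 members shared an interval with another listed gene, and for 8 of them, Rps18, Rps2, Rps25, Rps3 and Rpsa included, the interval covered at least 50% of that gene. A height in a shared interval cannot be assigned to 1 of the genes. Rps18 shared with B3galt4, Vps52 and Wdr46, and its highest point lay in an exon of B3galt4. For Rps2 the neighbour was Ndufb10, for Rps25 Ccdc84 and Trappc4, and for Rps27 Nup210l. Rps21 shared with Cables2, Rps27a with Mtif2 and 1700034F02Rik, Rps28 with Ankrd47 and Ndufa7, Rps3 with 2810406K13Rik, Rps3a with Sh3d19 and Rps9 with Lilrb3. For Rpsa it was EG546166. Active regions, from which the heights come, held another listed gene for 21 members. Rps26 is among them: it has the same heights as Ikzf4 in every library, though its wild-type interval held no other listed gene. Introns of ribosomal protein genes often host small nucleolar RNAs, which guide modification of ribosomal RNA, and 10 members held 19 such genes in the GENCODE annotation, among them Rps12, Rps3, Rps3a and Rpsa. Of these, Snora64 in Rps2 and Snora62 in Rpsa had lines of their own in the gene table, with the values of their hosts. The 32 genes lie on 13 chromosomes, 9 of them on chromosome 7.

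Promoters were compared with the RefSeq table for GRCm38.p6, 250 bases before to 50 after each start, in which 24 of the 32 members were matched. Rps14, Rps20, Rps27a and Rps29 were among those not in it. CCGGAAG, the core of the site for Ets factors, was found on either strand in 11 of the 24 (45.8%) and in 9.12% of 27025 promoters. GGGCGG, the GC box, was found in 13 (54.2%) beside 35.9%, and TATAAA in 2 (8.33%) beside 14.2%. CTCTTTCC was found in 2 (8.33%) beside 3.04%, and AAGATGGC in 2 (8.33%) beside 2.88%. On the gene's strand a run of at least 5 C or T covering or touching the annotated start was present in 9 (37.5%), beside 18.8% of all promoters. These were Rps10, Rps18, Rps6, Rps15a, Rps24, Rps27, Rps9, Rps21 and Rps27l.

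The 7 promoters that lead the list by length of the run, 13 bases in Rps10, 11 in Rps18, 10 in Rps6 and 9 in the others, are shown because the oligopyrimidine tract of the family's messenger RNAs begins at this place. Each is 50 bases before and 25 after the annotated start, 5′ to 3′ on the gene's strand in GRCm38.p6, with the run of C and T at the start in capitals. Rps10 is chr17:27635220-27635294, Rps18 chr17:33955641-33955715, Rps6 chr4:86857343-86857417, Rps15a chr7:118116123-118116197 and Rps27 chr3:90213624-90213698, all on the minus strand. Rps24 is chr14:24490628-24490702 and Rps9 chr7:3703991-3704065, both on the plus strand.
Rps10: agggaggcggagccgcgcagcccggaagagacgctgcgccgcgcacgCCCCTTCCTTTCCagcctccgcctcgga
Rps18: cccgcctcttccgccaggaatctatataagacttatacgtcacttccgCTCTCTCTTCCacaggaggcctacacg
Rps6: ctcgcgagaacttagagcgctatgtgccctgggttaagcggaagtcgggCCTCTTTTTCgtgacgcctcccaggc
Rps15a: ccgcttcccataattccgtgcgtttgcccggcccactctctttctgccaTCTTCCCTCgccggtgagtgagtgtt
Rps24: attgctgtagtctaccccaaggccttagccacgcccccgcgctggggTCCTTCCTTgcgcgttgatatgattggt
Rps27: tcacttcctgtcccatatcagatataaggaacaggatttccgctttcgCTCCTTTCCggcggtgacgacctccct
Rps9: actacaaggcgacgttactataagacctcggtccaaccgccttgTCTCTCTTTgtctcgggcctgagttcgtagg

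Small subunit proteins outside the naming rule had values in the range of the members. Fau, a ubiquitin-like fusion to the ribosomal protein S30, had heights of 26, 19, 16 and 18, and Gnb2l1, which encodes the scaffold RACK1 on the head, had 30, 26, 28 and 29. The 10 members mutated in Diamond-Blackfan anaemia, a failure of red cell production, had median heights of 30, 22.5, 20.5 and 20, and the other 22 members 29.5, 23.5, 26.5 and 28. Their median ratios were 1.13 without treatment and 1.01 under PJ34, beside 1.08 and 0.912 for the other 22. Over all genes these medians were 1 and 1.13. These differences were not tested.

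Set beside the small subunit genes, the 44 large subunit genes had median heights of 30.5, 26, 23 and 23.5. Their median wild type over Parp14-deficient ratio was 1.23 without treatment and 0.988 under PJ34, each above that of the small subunit genes (1.10 and 0.912). In the untreated comparison 25 of the 44 were above 1.2 and 5 below 0.83, beside 11 and 2 of the 32. Over all genes 27.8% were above 1.2 and 26.6% below 0.83. Untreated over PJ34-treated, the large subunit median was 1.2 in wild type and 1 in Parp14-deficient cells, where the small subunit had 1.12 and 1. The 35 of 40 listed assembly factors of the small subunit, which process its precursor and leave it, had median heights of 11, 12, 11.5 and 12 and genotype ratios of 0.985 and 1.05. Over all genes the median genotype ratios were 1 without treatment and 1.13 under PJ34. Fbl, which methylates ribosomal RNA, had 51, 32, 39 and 40, and Tsr1, a late assembly factor, 26, 17, 27 and 30. Of the genes named as S6 kinases, some of which phosphorylate the product of Rps6, 7 of 10 could be matched, with genotype medians of 1.2 and 1.22. Their median heights were low, at 9, 8.5, 7.5 and 8, and 7, 5, 3 and 5 of the 7 had an interval. Rps6kb1 had 10.5, 8.5, 8.5 and 11.5. The 20 of 26 mitochondrial small subunit genes matched by name had medians of 1 and 1.27. No difference between these groups of genes was tested.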

How the data were processed

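The authors mapped reads to mm9, removed duplicates, reduced every library to an equal number of unique alignments and called intervals with SICER (version not given) against the input. The values are the signal the authors deposited: fragment pile-up heights averaged over active regions, in 4 of the table's columns. Another 12 per-sample columns, 8 of them B cell columns, were not used here. Members and lists were chosen with earlier results of these data known; the division into head and body, the place of highest points and the polyadenylation hexamers were chosen after seeing the data. Genes of other lists counted only where the name matched the transcript, or the coordinates where no transcript was found in the reference. The names of 3796 lines did not match. Ratios used no pseudocount, genes at 0 in either library were left out, and intervals are Clopper-Pearson, 95%, on heights times active regions. Full statistics were given for the 3 tallest members, the 3 highest and 3 lowest untreated genotype ratios, members whose interval excluded 1, and Rpsa, Rps6, Rps14, Rps19, Rps27, Rps27a, Rps27l and Rps4x; Rps16, Rps13, Rps20 and Rps26 were added after their values were seen. Counts and medians cover all members, but some members are not reported here singly or drawn. Gene models came from GENCODE vM1 (NCBIM37), promoters from RefSeq GRCm38.p6. Alternatives covered scaling, pseudocount, filters, limits, measure, neighbours, names and windows. Python 3.11.15, numpy 2.4.6, scipy 1.17.1 and matplotlib 3.10.9 were used, and the code was tested on simulated data.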

Additional observations from a re-analysis of the deposited data

Results flagged for a closer look

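The genotype ratio of 12 members was above 1 without treatment and below 1 with PJ34, beside 11.3% of all genes, and that of 4 members was below 1 without treatment and above 1 with PJ34, beside 23.4%. The median ratio of all genes was 1 without treatment and 1.13 with PJ34; with libraries scaled to a common median the counts were 13 and 3, beside 19.7% and 19.2%. These genes were picked out because their ratios lay on opposite sides of 1 in the treated and the untreated pair of libraries. Each pair holds 1 library per genotype, and the difference between the pairs was not tested.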

How the results depend on the processing

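Of 96 alternatives to 22 results, 71 stayed within the interval or within 1.5 times the count and 25 moved the value. The untreated genotype median went from above 1 to below 1 under a filter that left Rps27 alone. Apart from covered length, medians stayed within their interval in 34 of 39 alternatives. Filters at a height of 15, members without neighbours in their active regions, windows of 250 and 1000 bp around the start and GENCODE gene ends were chosen after seeing the data and moved no value. Members with neither a neighbour nor shared values, also chosen after seeing the data, gave a median of 1.31 for PJ34 in wild type. Below, the comparisons are in the order untreated genotype, PJ34 genotype, PJ34 in wild type, PJ34 in Parp14-deficient cells. Where the height summed over a gene's active regions reached 50 in whichever library of the pair had more, medians were 0.569, 0.540 and 0.870 and counts above 1.2 were 0, 0 and 0 and below 0.83 were 1, 1 and 1 in the first, second and last, where few members remained; no member remained for PJ34 in wild type. A limit of 1.4 left 6, 1, 5 and 1 members above, beside 14.1%, 22.9%, 8.93% and 16.2% of all genes, and 0.7 left 1, 4, 0 and 3 below, beside 13.3%, 7.93%, 13.9% and 8.86%. With libraries scaled to a common median, the PJ34 genotype median was 0.815, with 2 members above 1.2 and 17 below 0.83, and PJ34 in Parp14-deficient cells had 2 above 1.2. By covered length all 4 medians were 1, since intervals cover most of these genes whole, so this measure says nothing on stability. Requiring 50% of the other gene to be covered gave 8 members sharing an interval, and an interval height of 20 gave 19 members with intervals in all libraries. Beyond the smaller numbers that the filters and limits bring, the cause was not tested. No analysis paired across genotype and PJ34 was run, and each condition has 1 library.

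The small number of fragments behind each height limits precision: most intervals on ratios include 1. Reads were short and uniquely aligned, and the genes have many processed pseudogenes; what this does to heights over exons was not tested. Reads themselves were not analysed here, so heights away from the highest points are unknown. A height in an interval shared with a neighbour belongs to no single gene. Genotype and PJ34 were crossed, but with 1 library per condition a condition and its library cannot be told apart.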
